A study of Rattus norvegicus with 9 samples.

Results

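The response of rat vascular smooth muscle cells to platelet-derived growth factor BB (PDGF-BB) was measured by RNA-seq as the difference between 3 PDGF-BB libraries and 3 Control libraries, 6 of the 9 libraries of the series. It was described over all genes that were expressed, which were 11197 of the 32623 genes in the file. A gene counted as expressed where its FPKM, a count scaled for depth and exonic length, reached 1 in 3 or more of the 9 libraries. The cells were primary smooth muscle cells of the rat aorta, labelled wild type and used at passages 4 to 8. Both groups were grown in 20% serum, starved of serum for 12 h and then kept in 2% serum during treatment, so the difference is that of the growth factor on top of low serum. Control cells received an equal volume of the solvent DMSO. PDGF-BB cells received the growth factor for 24 h at a concentration that the sample labels give as 10 ng/mL and the series design as 20 ng/mL. The other 3 libraries, from cells given 0.5 µM of the enzyme inhibitor PTUPB for 2 h before the same growth factor, only lend their replicate spread to the test. Whether replicates were separate cultures or animals is not in the labels, so the p-values rest on a spread between libraries that may be technical.

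PDGF-BB is a dimeric ligand released by platelets and vessel wall cells. It binds PDGF receptors, which are tyrosine kinases, and these recruit adaptors that switch on RAS and ERK kinases, PI3 kinase with AKT, and phospholipase C gamma. In arterial smooth muscle this signal is known as a stimulus of division and migration, and as one under which cells leave the quiescent contractile state.

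Total counts ran from 12729187 to 16911050 a library, so that 3 counts, the upper limit that a count of 0 allows, equal 0.178 to 0.231 CPM (counts scaled to library size by the trimmed mean of M values). Such limits cover counting error only. The 10 most abundant genes held 7.79% to 8.77% of the counts and mitochondrially encoded genes 2.81% to 3.66%. Smooth muscle markers were present: 10 of 12 passed the level filter, and their summed abundance was 5797 to 8620.0 TPM (FPKM rescaled to the same sum in every library, used here to compare genes) in Control and 6827 to 7159 in PDGF-BB. Desmin (Des) and the enteric actin gene Actg2 did not pass it. Of the endothelial markers only Egfl7 passed, and 5 of the 9 with a row (Cdh5, Kdr, Tie1, Emcn and Cldn5) had no count in any of the 6 libraries. The leukocyte marker Ptprc and the macrophage markers Cd163 and C1qa also had no count. Control replicate 2 and PDGF-BB replicate 3 stood apart from the rest of their groups in a trend with gene length, and list counts that turned on them are also given without them.

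PDGF-BB changed 3714 of 11197 genes (33.2% of those tested) by the quasi-likelihood test of edgeR, at a Benjamini-Hochberg adjusted p under 0.05. Expression rose for 1942 of them (17.3%) and fell for 1772 (15.8%), and the change was at least 2-fold for 489 rises (4.37%) and 297 falls (2.65%). The typical called change was therefore small, with a median log2 change of 0.58 among rises and -0.56 among falls, and the median over all tested genes was -0.02. Of all calls 52.3% were rises, but this share was 64.1% when libraries were scaled by their totals alone (2410 higher, 1350 lower) and 65.0% with limma on log2(FPKM + 1) (2372 and 1277). These scalings moved the median of all genes to 0.05. In bulk RNA a lower level can mean fewer cells that express a gene or less RNA in each cell, and these cannot be told apart here.

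**Figure D1:**
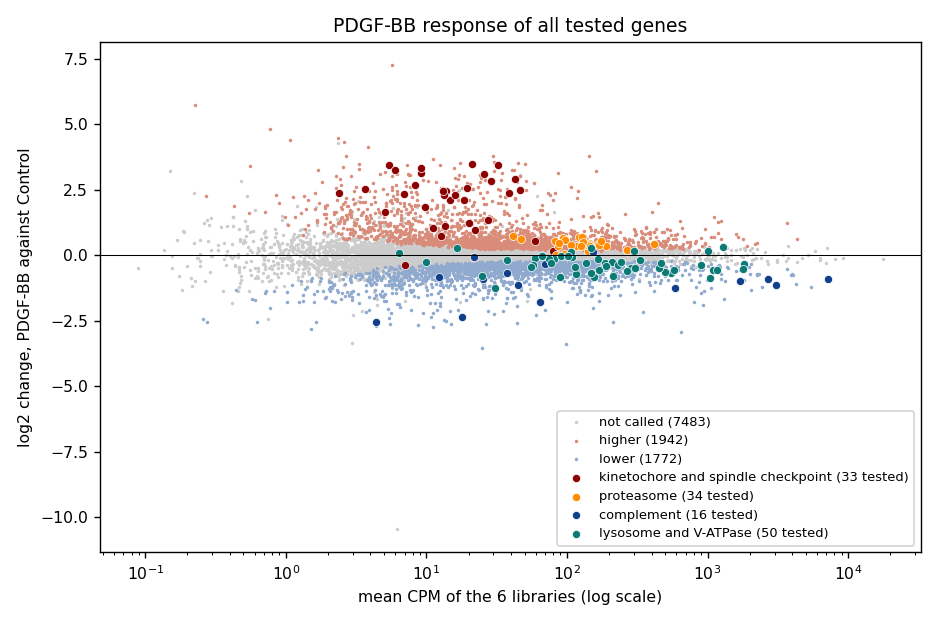
Log2 change (PDGF-BB against Control) of the 11197 tested genes against their mean CPM over the 6 libraries (log scale), with 4 gene lists in strong colours. Most kinetochore genes lie well above 0 (median 2.36), and the highest log2 change of a called gene was 7.25. Proteasome genes form a narrow band just above 0, and most complement and lysosome genes lie below 0. The lowest point is Pigm, which was not called (adjusted p = 0.0625).

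The receptor gene Pdgfrb and the genes of the relay behind the receptors behaved differently. Pdgfrb, which encodes a receptor that binds PDGF-BB, was at 1177, 1190.2 and 1144 CPM in Control, against 592, 543 and 572 CPM in PDGF-BB (log2 change -1.04 ± 0.07 SE). Of 32 genes that carry the PDGF signal from the receptor inwards, 4 rose and 3 fell, shares of 12.5% and 9.38% that lie below those of all tested genes, with a median log2 change of -0.10. The adaptor gene Shc1 was at 369, 388 and 397 CPM in Control replicates 1 to 3 and at 364, 363 and 398 CPM in PDGF-BB (-0.04 ± 0.07). Phospholipase C gamma 1 (Plcg1) overlapped between the groups as well (-0.12 ± 0.08). The 4 rises were small and included the RAS gene Hras (27.8 to 30.6 CPM in Control, 34.6 to 42.5 in PDGF-BB, 0.43 ± 0.10, edgeR adjusted p = 0.00670). Sos2, which loads RAS with GTP, was among the falls (-0.48 ± 0.12). The number of falls ranged from 0 to 8 over the 18 alternative analyses, so its place below the share of all genes is not settled. It was 8 without Control replicate 2 and PDGF-BB replicate 3, when 2182 of all 11197 genes fell. DESeq2 gave 5 falls, and leaving out Control replicate 3 gave 1 fall and 2 rises.

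Genes that FOXO transcription factors switch on included many falls. FOXO factors are held out of the nucleus by AKT, so their targets are a common transcript readout of the PI3 kinase arm. Of 21 tested members 12 fell (57.1%, against 15.8% of all tested genes) and 1 rose, with a median of -0.38. Fbxo32, a ubiquitin ligase subunit of muscle atrophy, was at 42.6, 31.4 and 41.8 CPM in Control and at 14.3, 13.7 and 8.90 CPM in PDGF-BB, with no overlap (log2 change -1.65 ± 0.17, edgeR adjusted p = 9.25e-05). The insulin receptor substrate gene Irs2 was at 80.1 to 86.2 CPM in Control and 42.5 to 47.5 in PDGF-BB (-0.87 ± 0.08). Pink1, a kinase of mitochondrial quality control, fell by 0.98 ± 0.11. The rise was that of Txnip, which holds down glucose uptake and thioredoxin: its Control libraries lay at 378 to 473 CPM and its PDGF-BB libraries at 703 to 814 (0.76 ± 0.12). Ccng2, often used as a FOXO reporter, overlapped between groups (-0.03 ± 0.11).

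Most of the largest rises were in the machinery that separates chromosomes. Among called genes that reached a mean FPKM of 10 in either group and whose groups did not overlap, 9 of the 10 largest rises were genes of mitosis, the centromere or DNA repair. They were Pttg1, Kif20a, Cenpw, Knstrn, Cdc20, Birc5, Ube2t, Ccnb1 and Cenpa, with log2 changes from 3.47 to 3.79. Ccnb1 encodes cyclin B1, which activates the kinase that starts mitosis, and was at 11.5, 5.83 and 7.29 CPM in Control against 93.6, 99.5 and 82.6 CPM in PDGF-BB (log2 change 3.50 ± 0.26, edgeR adjusted p = 1.69e-05). The largest of the 10 was that of Trappc2b (log2 change 4.48 ± 0.82, edgeR adjusted p = 0.00233), a copy of the vesicle transport gene Trappc2, at 0, 0.476 and 0.0663 CPM in Control, against 1.54, 7.06 and 5.05 CPM in PDGF-BB. Its reads could be shared with Trappc2, and this change ran from 2.96 to 6.70 over the alternatives, so its size is uncertain.

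The kinetochore is the protein plate on each centromere that holds the spindle fibres, and its checkpoint delays anaphase until all chromosomes are attached. Of 33 tested kinetochore and checkpoint genes 30 rose (90.9%, against 17.3% of all tested genes), 0 fell, and the median log2 change was 2.36. The centromeric histone Cenpa, which marks where the kinetochore forms, was at 4.11, 2.38 and 4.04 CPM in Control and at 38.9, 37.1 and 39.5 CPM in PDGF-BB, an 11.0-fold difference (log2 change 3.47 ± 0.22, edgeR adjusted p = 7.10e-06). The checkpoint kinase relative Bub1b moved from 3.57 to 8.07 CPM up to 52.6 to 63.2 CPM (3.43 ± 0.27). Every one of the 10 tested mitotic kinesins, motors that build and slide spindle fibres, rose, with a median of 2.78. Kif22, a motor on chromosome arms, was at 12.2, 7.67 and 10.9 CPM in Control and at 82.0, 82.4 and 83.5 CPM in PDGF-BB (log2 change 3.02 ± 0.17, edgeR adjusted p = 4.71e-06). Control replicate 2 was the lowest Control library for each of these genes, and PDGF-BB replicate 3 was lower than the other 2 for the motor gene Kif11 (64.1, 73.3 and 26.9 CPM, 2.26 ± 0.36). Without both libraries all 10 kinesins and 31 of the 33 kinetochore genes were higher.

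The kinesins that carry cargo in non-dividing cells had 2 rises (13.3%) and 3 falls (20.0%) among 15 tested genes, shares near the 17.3% and 15.8% of all tested genes, with a median of -0.01. Kif5b, the main cargo motor, overlapped between groups (-0.35 ± 0.28). Kif26b, an atypical kinesin, fell from 133 to 209 CPM in Control to 58.5 to 65.5 CPM in PDGF-BB (-1.49 ± 0.15). The falls numbered 5 when Control replicate 2 or PDGF-BB replicate 3 was left out, and 6 without both.

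Promoters of mitotic genes often carry a cell cycle homology region (CHR, letters TTTGAA), the element through which the DREAM and MuvB complexes hold these genes down in quiescent cells and raise them in G2. It is often paired with CCAAT boxes, which bind NF-Y. Both motifs were searched on both strands in the RefSeq promoter windows of build GRCr8, which run from 250 bases before to 50 bases after a gene's start. Windows were found for 8427 of the tested genes. A CHR match was present in 6 of 10 mitotic kinesins (60.0%) and 12 of 29 kinetochore genes (41.4%), against 28.4% of the genes that rose at least 2-fold, 10.2% of those that fell at least 2-fold, 11.2% of all tested genes and 18.1% of all 27457 promoters. A match is a string of letters and was not tested as a binding site. The 2 promoters shown are those of the list member with the smallest p that held a match, chosen after the matches were seen. They are the 250 bases before the start, 5′ to 3′ on the gene's strand, with CHR matches (TTTGAA or its reverse complement TTCAAA) and CCAAT matches (CCAAT or ATTGG) in capitals. Kif22 lies on the minus strand at chr1:191080879-191081128 and Cenpa on the minus strand at chr6:31431553-31431802, and in neither did matches overlap.
Kif22: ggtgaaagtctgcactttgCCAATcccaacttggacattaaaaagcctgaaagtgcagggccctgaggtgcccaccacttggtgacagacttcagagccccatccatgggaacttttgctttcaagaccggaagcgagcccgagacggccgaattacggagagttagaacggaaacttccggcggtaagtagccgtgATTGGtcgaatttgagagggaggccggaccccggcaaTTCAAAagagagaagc
Cenpa: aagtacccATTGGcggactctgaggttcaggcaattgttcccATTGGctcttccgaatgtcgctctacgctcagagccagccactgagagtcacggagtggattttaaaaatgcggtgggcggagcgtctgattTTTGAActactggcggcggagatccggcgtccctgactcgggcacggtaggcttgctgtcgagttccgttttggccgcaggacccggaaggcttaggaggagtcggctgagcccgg
In Kif22 the CHR match lay 16 to 11 bases before the start, with CCAAT matches at 53 to 49 and 231 to 227 bases. In Cenpa it lay 116 to 111 bases before the start, below CCAAT matches at 208 to 204 and 242 to 238 bases.

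DNA replication genes rose as a broad group but by less. Of 41 tested genes of origin licensing, the helicase, the polymerases and the fork, 33 rose (80.5%) and 0 fell, with a median of 1.12. Gins4, a subunit of the replicative helicase, moved from 3.21, 2.20 and 3.12 CPM to 12.7, 12.6 and 14.0 CPM (log2 change 2.21 ± 0.18, edgeR adjusted p = 2.21e-05). Its partner Gins1 moved from 2.26 to 3.29 CPM up to 11.9 to 15.7 CPM (2.41 ± 0.23). The abundant helicase gene Mcm2 was already at 28.4 to 40.6 CPM in Control and reached 52.9 to 73.3 CPM (0.79 ± 0.15), and the sliding clamp Pcna went from 40.0 to 45.3 CPM up to 65.7 to 77.5 CPM (0.77 ± 0.10). Geminin (Gmnn), which blocks a second round of licensing, rose with them (1.89 ± 0.13).

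These genes are classic targets of E2F factors, which RB releases when a cell leaves G1. An E2F match, searched as TTTCCCGC or TTTGGCGC on both strands, stood in 15 of 35 replication promoters (42.9%), against 3.26% of all tested genes and 1.53% of all promoters. The motif was in 0 of the 29 kinetochore promoters, which says only that these letters are not in this window. The promoter of Gins1, shown because it was the replication gene of smallest p with a match, lies on the plus strand at chr3:160184670-160184919. Its capitals mark E2F and CCAAT matches, and the 2 E2F matches, one on each strand, overlap 25 to 14 bases before the start.
Gins1: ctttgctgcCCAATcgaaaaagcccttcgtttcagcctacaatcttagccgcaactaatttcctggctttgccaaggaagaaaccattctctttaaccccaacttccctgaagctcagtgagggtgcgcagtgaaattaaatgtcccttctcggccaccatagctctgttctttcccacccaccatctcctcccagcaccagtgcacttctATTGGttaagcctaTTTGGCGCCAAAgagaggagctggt
The CCAAT letters stood in 60.0% of replication promoters, against 38.4% of all tested genes and 51.4% of genes that rose at least 2-fold. They stood in 60.0% of mitotic kinesin promoters. In kinetochore promoters the share was 44.8%, near the 44.7% of all genes that rose.

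Genes that supply deoxynucleotides also rose. Of 26 nucleotide synthesis genes 16 rose and 1 fell (median 0.41). The salvage enzyme gene Tk1, thymidine kinase, was at 18.9, 9.87 and 16.1 CPM in Control, against 92.3, 100.3 and 109 CPM in PDGF-BB (log2 change 2.76 ± 0.22, edgeR adjusted p = 2.46e-05). Dut, which removes dUTP, changed by 2.00 ± 0.12, and the ribonucleotide reductase subunit Rrm2 by 1.92 ± 0.17. Of 16 one-carbon and polyamine genes 7 rose and 1 fell (median 0.31). Ornithine decarboxylase (Odc1), the first enzyme of polyamine synthesis, was at 60.2 to 86.9 CPM in Control, against 121 to 173 CPM in PDGF-BB (0.98 ± 0.16), and Ahcy, which clears S-adenosylhomocysteine, changed by 0.91 ± 0.08.

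Genes that repair and repackage the copied DNA moved the same way. In the homologous recombination and Fanconi list 16 of 25 rose and 0 fell (median 1.08). Fancd2, a clamp loaded at crosslinked forks, moved from 2.56 to 5.45 CPM up to 24.1 to 34.1 CPM (2.93 ± 0.25). In the chromatin maintenance list 16 of 22 rose and 0 fell (median 1.30). Hmgn2, a nucleosome binder, was at 85.1, 84.3 and 76.0 CPM in Control, against 257, 233 and 256 CPM in PDGF-BB (log2 change 1.60 ± 0.10, edgeR adjusted p = 7.10e-06). Ezh2, the methyltransferase of Polycomb, changed by 1.47 ± 0.15 and the histone acetyltransferase gene Hat1 by 1.36 ± 0.10. Histone genes without a poly(A) tail are poorly captured by poly(A) selection and are not described.

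Tubulins, which make the spindle, were among the abundant genes that rose. In the tubulin and stathmin list 12 of 21 rose and 0 fell, and their summed abundance was 1628 to 2171 TPM in Control and 4354 to 4773 TPM in PDGF-BB. Stathmin (Stmn1), which takes microtubules apart and is high in dividing cells, was at 44.1, 29.3 and 36.5 CPM in Control, against 194, 199 and 215 CPM in PDGF-BB (log2 change 2.47 ± 0.17, edgeR adjusted p = 1.15e-05). Tuba1b went from 129 to 212 CPM up to 663 to 794 CPM (1.99 ± 0.18). Tubulin genes are near copies of one another, so the split of reads between them is uncertain. Genes of cytokinesis, the step that cuts the cell after the spindle has done its work, rose by more than 2 log2 units: anillin (Anln, 2.38 ± 0.34), the exchange factor Ect2 (2.96 ± 0.36) and its partner Racgap1 (2.79).

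**Figure D2:**
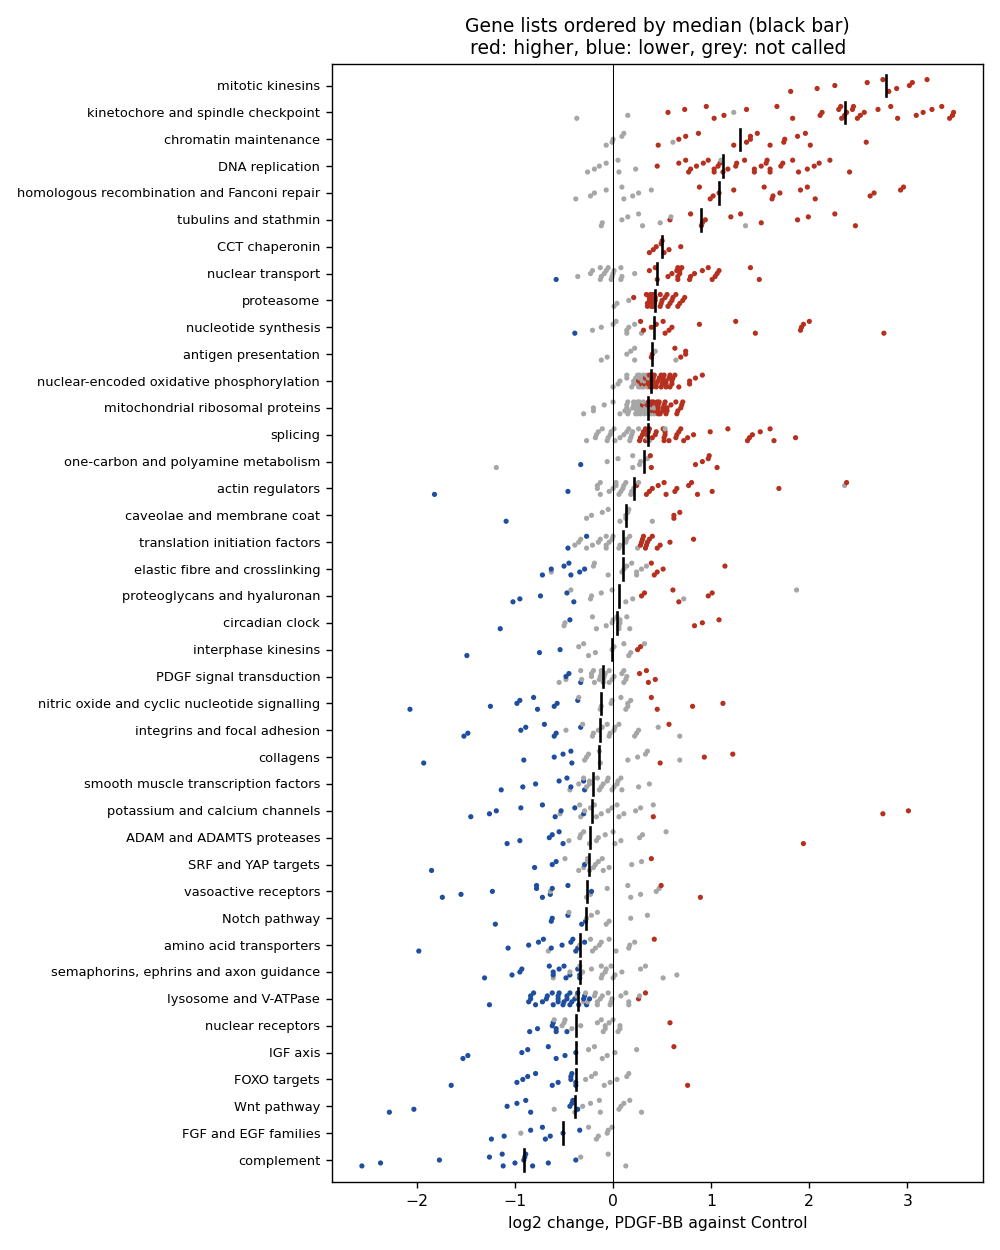
Log2 change of every tested member of the gene lists (points: red higher, blue lower, grey not called), with the list's median as a black bar and lists ordered by it. The lists of mitosis and replication sit at the top and complement (median -0.90) at the bottom.

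Genes of protein turnover and folding rose by small steps shared by almost every member of the proteasome and chaperonin lists, and splicing and nuclear transport lists held many rises. The proteasome degrades ubiquitin-tagged proteins: 31 of its 34 genes rose (91.2%), 0 fell, and the median was only 0.42, with a summed abundance of 5129 to 5363 TPM in Control and 6703 to 7757 TPM in PDGF-BB. Psma7, a gene of the catalytic barrel, was at 89.0, 106 and 96.3 CPM in Control, against 149, 133 and 194 CPM in PDGF-BB (log2 change 0.71 ± 0.13, edgeR adjusted p = 0.00247). Replicate 3 was the highest of the PDGF-BB libraries. All 8 genes of the CCT chaperonin, which folds actin and tubulin, rose by a median of 0.49, for example Tcp1 (134 to 139 CPM in Control, 195 to 247 in PDGF-BB, 0.69 ± 0.09). Splicing factors had 34 of 57 rises and 0 falls (median 0.36). Hnrnpa1, an RNA binding protein that shapes exon choice and has many processed copies in the genome, stood out at 193, 221 and 171 CPM in Control, against 624, 576 and 629 CPM in PDGF-BB (log2 change 1.64 ± 0.13, edgeR adjusted p = 2.16e-05). Nuclear transport genes had 23 of 41 rises and 1 fall (median 0.45). They were led by the importin gene Kpna2 (53.0 to 82.2 CPM in Control, 175 to 204 in PDGF-BB, 1.49 ± 0.14) and by the GTPase Ran (1.04 ± 0.10), which also guides spindle assembly.

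Translation initiation factors were less uniform. Of 34 genes 13 rose and 2 fell, with a median of 0.10, and without Control replicate 3 the rises numbered 5. Without Control replicate 2 and PDGF-BB replicate 3 the falls numbered 4. The abundant factor Eif5a, which carries the hypusine made from polyamines, went from 439.6, 433 and 451 CPM to 724, 702 and 903 CPM (log2 change 0.82 ± 0.10, edgeR adjusted p = 1.99e-04). The cap-binding factor gene Eif4e changed by 0.34 ± 0.06.

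Mitochondrial genes encoded in the nucleus rose in the same small way. Of 65 genes of oxidative phosphorylation 42 rose (64.6%), 0 fell, and all 65 had a positive log2 change, with a median of 0.39. The ATP synthase beta subunit gene Atp5f1b was at 686, 687 and 699 CPM in Control, against 1044, 1007 and 1253 CPM in PDGF-BB (log2 change 0.67 ± 0.09, edgeR adjusted p = 4.18e-04). Of 70 mitochondrial ribosomal protein genes 31 rose and 0 fell (median 0.36), among them Mrps12 (14.2 to 17.0 CPM in Control, 24.0 to 27.0 in PDGF-BB, 0.69 ± 0.10). Leaving out Control replicate 1 or 3 left 27 rises in the oxidative phosphorylation list. In the ribosomal list 18 were left without Control replicate 1, 20 without Control replicate 3 and 19 without PDGF-BB replicate 3, when 1 gene fell.

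These are short genes, with a median exonic length of 785 nt for oxidative phosphorylation and 1129.5 nt for the mitochondrial ribosome, and the direction of change followed length over the whole data set. With genes split by length into 4 groups, of the 2803 shortest (112 to 1515 nt) 24.0% rose and 6.71% fell, and the median log2 change was 0.16. Of the 2798 longest (3597 to 24116 nt) 9.33% rose and 27.2% fell, with a median of -0.18. The groups of genes between them had medians of 0.04 and -0.05. Libraries also differed in this respect within a group: the median log2 deviation of the longest genes from the mean of the 6 libraries, minus that of the shortest genes, was 0.32, -0.03 and 0.22 in Control replicates 1 to 3 and -0.10, -0.01 and -0.37 in PDGF-BB replicates 1 to 3. Control and PDGF-BB overlapped in this measure, since Control replicate 2 lay just below PDGF-BB replicate 2. Without Control replicate 2 and PDGF-BB replicate 3 the medians were 0.16 and -0.16. When a smooth trend with length was removed from every library, an analysis chosen after seeing the data that would also remove any real difference tied to length, the medians were 0.00 and 0.01. Rises then numbered 28 in the oxidative phosphorylation list and 21 in the mitochondrial ribosomal list, against 30 in the proteasome list, 35 in the replication list and 31 in the kinetochore list. Whether RNA integrity or library preparation had a part in the length trend was not tested.

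**Figure D3:**
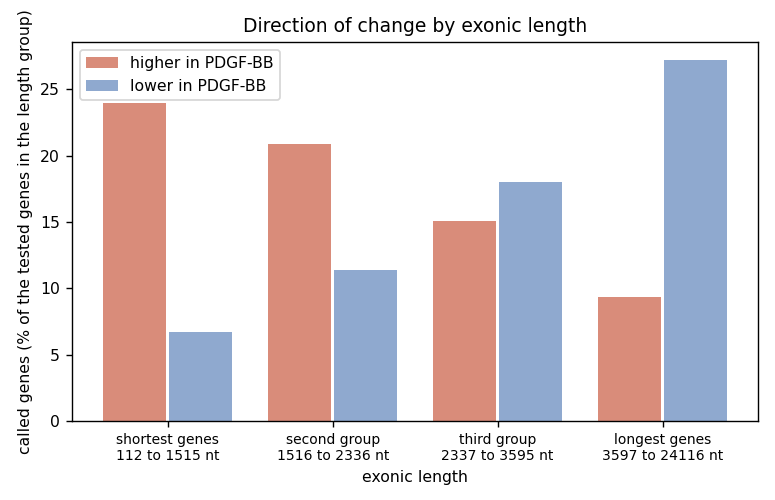
Percentage of tested genes called higher (red) and lower (blue) in PDGF-BB in 4 groups of genes by exonic length, from 112 to 24116 nt. The share of rises went from 24.0% in the shortest to 9.33% in the longest genes, while that of falls went from 6.71% to 27.2%.

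Ranked by change in TPM rather than by fold, the response was led by other genes. TPM is a share of each library, and RNA per cell was not measured. Summed over called genes, rises added 86657 TPM, falling genes together dropped by 81072 TPM, and the 50 genes of largest gain held 38.4% of the gain while the 50 of largest loss held 52.2% of the loss. The 10 largest gains were Vim, Timp1, Anxa2, Spp1, Col3a1, S100a4, Lgals1, S100a6, Tubb5 and Ldha. The intermediate filament gene Vim, a mark of mesenchymal cells, was at 3946, 4213 and 3524 TPM in Control and 5771, 5892 and 5916 TPM in PDGF-BB (log2 change 0.61 ± 0.12). Timp1, an inhibitor of matrix metalloproteinases, moved from 943 to 1128 TPM up to 2289 to 2762 TPM (log2 change 1.30 ± 0.11, edgeR adjusted p = 3.22e-05). Galectin 1 (Lgals1), a secreted lectin, moved from 528 to 542 TPM up to 1501 to 1703 TPM (1.59 ± 0.13). The membrane-binding annexin Anxa2 and the calcium-binding gene S100a6 rose as well, to 2357 to 2789.8 TPM and 2854 to 3340.3 TPM.

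The 10 largest losses were Lcn2, Mgp, Mmp2, C3, C1s, Lbp, Clu, C1r, Ptx3 and Ccn3, all of which encode secreted proteins. Lipocalin 2 (Lcn2), an iron-siderophore binder of innate defence, had the largest change in TPM among called genes. It was at 10307, 13088 and 11817 TPM in Control and 6981, 6379 and 7049 TPM in PDGF-BB (log2 change -0.76 ± 0.12, edgeR adjusted p = 0.00123). Lbp, which binds bacterial lipopolysaccharide, was at 2395 to 2678 TPM in Control and 897 to 1056 TPM in PDGF-BB (log2 change -1.32 ± 0.11, edgeR adjusted p = 2.46e-05). Matrix Gla protein (Mgp), an inhibitor of vessel calcification, was at 7228 to 9422 TPM and at 4858 to 5929 TPM. The long pentraxin gene Ptx3 and the growth-restraining matricellular gene Ccn3 fell by 0.70 ± 0.10 and 1.68 ± 0.18 on the log2 scale.

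**Figure D4:**
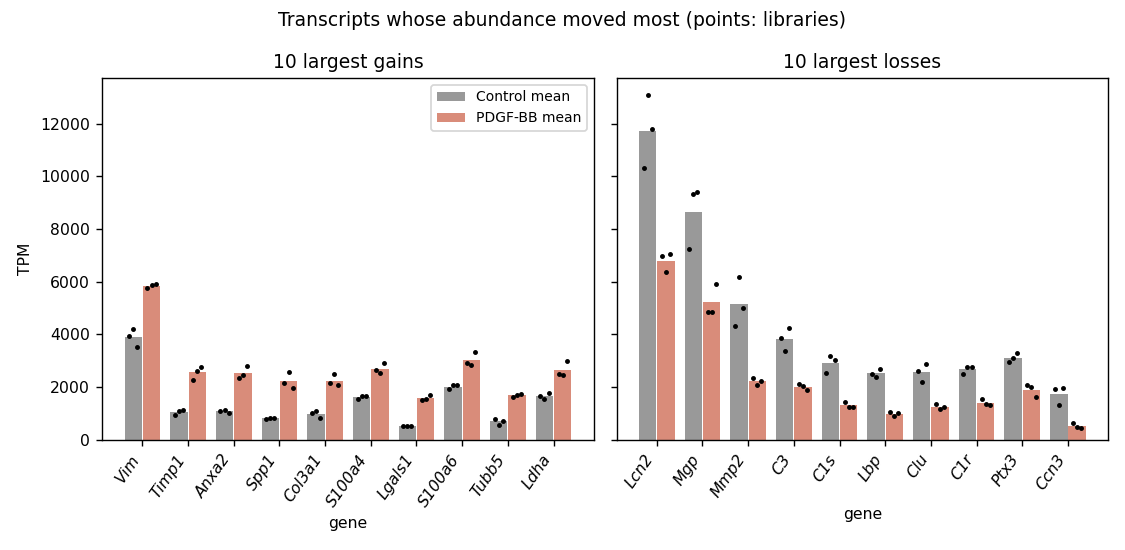
Mean TPM of the 10 called genes with the largest gain (left) and loss (right) in TPM, in Control (grey) and PDGF-BB (red), with each library as a point. The groups do not overlap for any of the 20 genes, which also holds for 97.0% of all called genes and 44.6% of all tested genes.

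Complement genes were the list with the lowest median. Complement is a cascade of plasma proteases that tags microbes and debris, with C1 as its classical trigger and C3 as its hub. Of 16 tested genes 13 fell (81.2%, against 15.8% of all tested genes), 0 rose, and the median was -0.90. C3 was at 9333, 8585 and 10295 CPM in Control, against 5311, 4903 and 4942 CPM in PDGF-BB (log2 change -0.90 ± 0.10, edgeR adjusted p = 1.57e-04). The C1 proteases C1s (-1.12 ± 0.13) and C1r (-0.91 ± 0.11) fell, and so did their inhibitor Serping1 (697 to 957 CPM in Control, 302 to 373 in PDGF-BB, -1.26 ± 0.14). Without Control replicate 2 and PDGF-BB replicate 3 the list had 12 falls and 1 rise. Markers of adventitial fibroblasts, which also make complement, moved with this list: 5 of 8 tested markers fell, and the sum of all 10 was 3484 to 5244 TPM in Control and 2119.9 to 3008 TPM in PDGF-BB. Their defining genes Pdgfra and Scara5 were well above 0 in every library, whereas Dpt and Cd34 did not pass the level filter, and the part of such cells in the result was not tested.

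Some antigen presentation genes rose. Of 14 tested genes 6 rose (42.9%, against 17.3% of all tested genes) and 0 fell, with a median of 0.39. The summed abundance of the list overlapped between groups, at 1179.7 to 1352 TPM in Control and 1323 to 1339 TPM in PDGF-BB. The peptide pump Tap1 was at 25.5, 27.9 and 26.3 CPM in Control, against 43.0, 39.6 and 45.9 CPM in PDGF-BB (log2 change 0.69 ± 0.09, edgeR adjusted p = 2.42e-04). The immunoproteasome subunit Psmb8 (0.74 ± 0.14) and the proteasome activator Psme2 (0.74 ± 0.12) rose, while the light chain B2m overlapped between groups (-0.12 ± 0.09). An interferon-stimulated response element, searched as GAAANNGAA on both strands, was present in 7 of 13 promoters of the list (53.8%), against 7.05% of all tested genes and 9.50% of all promoters. The promoter of Tap1, the list member of smallest p with a match, lies on the minus strand at chr20:4668544-4668793, with its match in capitals 120 to 112 bases before the start.
Tap1: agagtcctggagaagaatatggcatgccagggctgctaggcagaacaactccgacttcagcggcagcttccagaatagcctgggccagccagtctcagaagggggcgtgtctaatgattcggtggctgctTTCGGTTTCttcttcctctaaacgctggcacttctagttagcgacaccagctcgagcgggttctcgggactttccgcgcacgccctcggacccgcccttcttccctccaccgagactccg
The letters in capitals are the reverse complement of the searched motif.

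Many lysosome genes fell. Lysosomes are the acid compartments in which cells digest proteins, lipids and sugars. Of 50 tested genes of lysosomal enzymes, membrane proteins and the proton pump, 29 fell (58.0%, against 15.8% of all tested genes) and 2 rose, with a median of -0.36. The cholesterol exporter Npc1 was at 177, 197 and 175 CPM in Control, against 122, 112 and 111 CPM in PDGF-BB (log2 change -0.67 ± 0.08, edgeR adjusted p = 1.44e-04). The membrane protein Lamp1 was at 1296 to 1536 CPM in Control and 848 to 1005 in PDGF-BB (-0.56 ± 0.09). The protease gene Ctsh fell by 0.86 ± 0.10 on the log2 scale. The endocytic receptor gene Lrp1, which clears proteases and lipoproteins and binds the PDGF receptor beta, went from 5904, 4680.5 and 6691 CPM to 2779, 2829.6 and 2534 CPM (log2 change -1.09 ± 0.13, edgeR adjusted p = 1.95e-04).

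Ligands and receptors of other growth and patterning pathways fell more often than they rose. Of 15 FGF and EGF family genes 8 fell and 0 rose, and all 15 had a negative log2 change (median -0.51). Epiregulin (Ereg), an EGF receptor ligand, was at 42.0 to 59.0 CPM in Control and 16.8 to 25.3 CPM in PDGF-BB (-1.24 ± 0.24), and Fgf10 fell by 0.72 ± 0.17. Of 21 Wnt pathway genes 10 fell and 0 rose (median -0.39). The ligand Wnt4 was at 111, 90.8 and 99.0 CPM in Control, against 25.4, 16.3 and 20.4 CPM in PDGF-BB (log2 change -2.28 ± 0.16, edgeR adjusted p = 1.15e-05), and the secreted Wnt binder Sfrp2 went from 195 to 322 CPM down to 49.0 to 67.9 CPM (-2.03 ± 0.23). A ligand and a secreted inhibitor of the pathway thus both fell. Of 15 genes of the IGF axis 8 fell and 1 rose (median -0.38), including the protease that frees IGF from its binding proteins, listed as Pappa1 (-1.53 ± 0.25). Of 14 Notch pathway genes 6 fell and 0 rose, with the ligand Jag1 at 27.5 to 44.2 CPM in Control and 14.5 to 17.2 in PDGF-BB (-1.20 ± 0.18). Notch falls numbered 2 without Control replicate 3. Id2, an inhibitor of helix-loop-helix factors, was at 19.6, 30.6 and 17.2 CPM in Control, against 5.00, 3.34 and 3.92 CPM in PDGF-BB (-2.46 ± 0.25).

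Guidance molecules, first known from axons and also used by vessel wall cells, gave 14 falls and 0 rises in 32 tested genes (median -0.34). Slit3 was at 1382, 1177 and 1376 CPM in Control, against 692, 691 and 660.4 CPM in PDGF-BB (log2 change -0.95 ± 0.08, edgeR adjusted p = 3.91e-05), and its relative Slit2 fell by 0.93 ± 0.10. This list is long in sequence (median 4703 nt), and with the length trend removed it had 9 falls and 4 rises. The FGF, Wnt and IGF lists, with medians of 3800.0, 4017 and 3603 nt, then had 8, 7 and 6 falls.

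Matrix gene lists held rises and falls. Of 19 collagens 3 rose and 6 fell. With the length trend removed 8 rose and 3 fell, and the median changed sign from -0.14 to 0.04, so no direction is given for the list. The fibrillar Col1a1, at 17485 to 20902 CPM in Control and 16339 to 17429 in PDGF-BB, did not pass (log2 change -0.14 ± 0.10, edgeR adjusted p = 0.337). Another fibrillar collagen gene, Col3a1, rose from 1823 to 2525 CPM in Control up to 4933 to 5474 CPM in PDGF-BB (1.22 ± 0.15). Col6a2, of the microfibrils around cells, rose by less (0.48 ± 0.07). Of 24 elastic fibre genes 5 rose (20.8%, near the 17.3% of all tested genes) and 7 fell (29.2%, against 15.8%), and 10 rose with the length trend removed. Fibulin 5 (Fbln5), which links elastic fibres to cells, fell by 0.63 ± 0.07 and the latent TGF-beta binding gene Ltbp2 by 0.72 ± 0.12. Of 20 proteoglycan and hyaluronan genes 6 rose and 5 fell. The syndecans, transmembrane proteoglycans, split: Sdc1 was at 127, 130.0 and 132 CPM in Control, against 239.9, 243 and 280.2 CPM in PDGF-BB (log2 change 0.97 ± 0.08, edgeR adjusted p = 2.42e-05), whereas Sdc4 fell from 408 to 441 CPM to 290.1 to 331 CPM (-0.47 ± 0.08). Proteoglycan rises numbered 2 without Control replicate 1, 3 without Control replicate 3 and 3 without PDGF-BB replicate 1, and falls numbered 2 without PDGF-BB replicate 2 and 3 without PDGF-BB replicate 3. Cemip, which degrades hyaluronan, was among the 10 largest falls, from 640.2, 430.1 and 631 CPM to 145, 133 and 107 CPM (-2.15 ± 0.17).

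Integrins and focal adhesion genes had 8 falls (30.8%, against 15.8% of all tested genes) and 1 rise (3.85%, against 17.3%) in 26 tested genes. The rise was the fibronectin receptor subunit Itga5 (204, 207 and 211 CPM in Control, against 289.8, 313 and 322 in PDGF-BB, log2 change 0.57 ± 0.07, edgeR adjusted p = 1.60e-04). Itga8, an integrin subunit typical of contractile smooth muscle, went from 473 to 696 CPM down to 228 to 366 CPM (-0.94 ± 0.20), and the adaptor Lims2 fell by 1.48 ± 0.12. Falls in the list numbered 5 without Control replicate 3. With the length trend removed 5 genes fell and 6 rose, so no direction is given for the list. Scaling by library totals and limma each gave 4 rises. The list is long in sequence (median 4187 nt), and its share of falls was near the 27.2% of the longest genes. Of 21 ADAM and ADAMTS proteases 6 fell (28.6%) and 1 rose (4.76%), also near the shares of the longest genes (list median 4093 nt). Among them Adamts7 and Adamts8 went opposite ways. Adamts7, a protease of vascular matrix, was at 96.9 to 105 CPM in Control and 46.2 to 49.1 in PDGF-BB (-1.08 ± 0.10), and Adamts8 at 9.61 to 12.2 and 34.5 to 52.5 CPM (1.94 ± 0.20). Falls numbered 10 without Control replicate 2 and PDGF-BB replicate 3.

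Actin regulators rose on balance, with 15 rises and 2 falls in 35 genes (median 0.21) and a summed abundance of 13351 to 15112 TPM in Control and 17284 to 19269 TPM in PDGF-BB. The falls numbered 5 without Control replicate 2 and PDGF-BB replicate 3. Profilin (Pfn1), which feeds actin monomers to growing filaments, was at 398 to 430.3 CPM in Control and 566 to 740.4 in PDGF-BB (0.63 ± 0.10), and moesin (Msn), which ties actin to the membrane, changed by 0.86 ± 0.11. Scinderin (Scin), an actin-severing protein outside this list, was the largest fall by the naming rule, from 157, 219 and 166 CPM to 19.7, 14.9 and 17.4 CPM (log2 change -3.38 ± 0.16, edgeR adjusted p = 2.72e-06). Targets of SRF and YAP, factors that read actin tension, had 5 falls and 1 rise in 20 genes. That count turned on Control replicate 2: without it 13 fell, without Control replicate 1 or 3 or PDGF-BB replicate 1 or 2 there were 3, and 15 fell when Control replicate 2 was left out together with PDGF-BB replicate 3. Ankrd1, a target of both, fell in each of these analyses (-1.85 ± 0.28), while the well-known targets Ccn1 (-0.35 ± 0.15) and Ccn2 (-0.26 ± 0.13) did not pass.

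Genes through which vessels sense vasoactive signals fell more often than they rose. Of 21 receptors for vasoactive ligands 10 fell (47.6%, against 15.8% of all tested genes) and 2 rose (9.52%, against 17.3%), with a median of -0.27. The endothelin B receptor gene Ednrb was at 69.2, 89.6 and 76.8 CPM in Control, against 32.4, 27.9 and 20.3 CPM in PDGF-BB (log2 change -1.55 ± 0.20, edgeR adjusted p = 2.68e-04), and the adenosine receptor gene Adora2a fell by 1.23 ± 0.19. In the nitric oxide and cyclic nucleotide list 9 of 23 fell (39.1%) and 4 rose (17.4%, near the share of all tested genes). The natriuretic peptide receptors Npr2, a guanylyl cyclase (-0.81 ± 0.07), and Npr3, a clearance receptor (132 to 176 CPM in Control, 51.7 to 72.6 in PDGF-BB, -1.25 ± 0.14), both fell. So did Pde3a, a phosphodiesterase that breaks down cyclic AMP (-2.07 ± 0.35). Of 28 potassium and calcium channel genes 9 fell (32.1%, against 15.8% of all tested genes) and 3 rose (10.7%, against 17.3%). This list is long in sequence (median 4290.0 nt), and its shares were near the 27.2% and 9.33% of the longest genes. The L-type calcium channel gene Cacna1c, through which depolarisation triggers contraction, was at 27.9, 18.3 and 30.6 CPM in Control, against 11.8, 11.5 and 8.67 CPM in PDGF-BB (-1.26 ± 0.22). The intermediate conductance potassium channel gene Kcnn4, known from proliferating smooth muscle, was low and rose, from 0.971, 1.19 and 1.06 CPM to 6.53, 6.32 and 8.98 CPM (log2 change 2.75 ± 0.31, edgeR adjusted p = 1.46e-04). With the length trend removed 6 channel genes rose and 7 fell. The rises numbered 5 when Control replicate 2 and PDGF-BB replicate 3 were left out.

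Transcription factors tied to the smooth muscle state had 8 falls and 0 rises in 28 tested genes, a share (28.6%) above the 15.8% of all genes. Falls ranged from 5 to 9 over the alternatives, and in some of them 1 gene rose. They numbered 5 without Control replicate 1 or PDGF-BB replicate 2. The same number was found with scaling by library totals, with limma, without a filter and with the 6 libraries alone. Klf15, a factor of quiescent smooth muscle, was at 46.2, 52.6 and 46.0 CPM in Control, against 24.3, 20.7 and 20.6 CPM in PDGF-BB (log2 change -1.14 ± 0.10, edgeR adjusted p = 3.80e-05). Tbx18, a factor of mural cells, fell by 0.79 ± 0.10. Of the smooth muscle markers 5 of 10 tested fell and 0 rose.

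**Figure D5:**
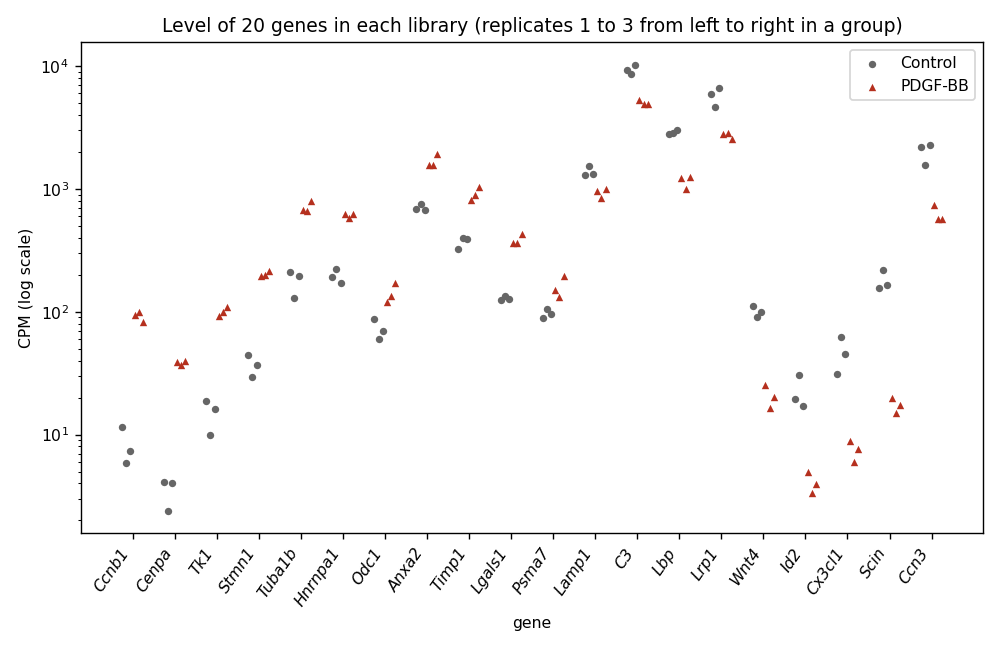
CPM (log scale) of 20 genes in each Control library (grey circles) and each PDGF-BB library (red triangles). Rises are on the left and falls on the right. For every gene shown the 3 libraries of one group lie above the 3 of the other. Such separation was found for 97.0% of called genes and 44.6% of all tested genes.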

How the data were processed

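Poly(A) RNA was primed at random and read as paired ends of 150 nt, per the labels' protocols. Per the submitters' processing notes, reads were handled with cutadapt 1.9.1, HISAT2 2.0.1 and HTSeq 0.6.1. The authors deposited expected counts and FPKM for each gene. Counts were not whole for 978 genes, for a reason not given in the sources used here, and were rounded. The notes name a mouse build while all 32623 identifiers are rat Ensembl identifiers, so no coordinates are taken from the file, and the counting strand is not stated there.

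Genes that reached an FPKM of 1 in 3 or more of the 9 libraries were tested with edgeR 4.0.16 in R 4.3.3 (TMM, quasi-likelihood F test, two-sided, 9 libraries in 1 fit, 6 residual degrees of freedom, adjusted p under 0.05). The method was tested on simulated data. CPM are TMM-scaled, TPM are deposited FPKM rescaled per library, and a log2 change is given ± SE. DESeq2 1.42.0, limma 3.58.1 on log2(FPKM + 1) and log2(FPKM + 0.1), other scalings and filters, a replicate block and left-out libraries were the alternatives.

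Gene lists (42 lists, 1326 of 1346 symbols matched), markers and the naming rule were chosen with earlier results of these data known. Named are the 10 largest rises and falls at a mean FPKM of at least 10 with groups that do not overlap, the 10 largest TPM gains and losses, and in each list preset anchors and up to 4 called members of smallest p. Pdgfrb, Pigm, Gins1, Racgap1 and the cell type markers were named outside this rule. Symbols without a match were not analysed here. The results of 1 list and of some single genes are not reported here.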

Additional observations from a re-analysis of the deposited data

How the results depend on the processing

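The calls held in most of the 18 alternatives. The number of changed genes was 2770 to 3902 when 1 library was left out in turn, that of higher genes 1502 to 2030 and that of lower genes 1268 to 1872. Fitting the 6 libraries alone left 1154 lower genes, with fewer libraries to estimate the spread. Without Control replicate 2 and PDGF-BB replicate 3 there were 4265 changed genes. DESeq2 called 3840, and removing the length trend of every library, chosen after seeing the data, left 3594, of which 3028 were shared with the calls reported and 21 reported calls then had the other sign. Of 253 genes the naming rule allows, 231 were called, 212 kept the call in every alternative and 0 changed sign. Among the 35 list counts of at most 2 genes, leaving out 1 library gave values between 0 and 3. Beside the counts given with their lists, leaving out Control replicate 2 and PDGF-BB replicate 3 together turned some list counts of 0 or 1 into 1 or 2. The replicate numbers do not pair the libraries (correlations of same-numbered deviations 0.0831, -0.238 and -0.0455, and only 1 of 6 libraries correlated best with its own number). A fit with the replicate number as a block called 3294 genes, 1744 higher and 1550 lower. With 3 libraries a group, small changes of low genes could be missed.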

Other observations

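Clock and caveola genes changed in shares near or below those of all tested genes (17.3% higher, 15.8% lower). Of 19 clock genes 3 rose (15.8%) and 2 fell (10.5%), with 4 falls without Control replicate 2 and PDGF-BB replicate 3, and the genes that rose, Dbp (20.3 to 21.6 CPM in Control, 36.5 to 41.1 in PDGF-BB, 0.91 ± 0.09, edgeR adjusted p = 8.37e-05), the repressor Nr1d1 (0.83 ± 0.10) and Ciart (1.08 ± 0.26), are output or feedback genes of the oscillator. Its activator gene Arntl (Bmal1) overlapped between groups (-0.01 ± 0.11), and Npas2, also in this list, fell by 1.15 ± 0.23 on the log2 scale. All libraries of a group share 1 collection time, as far as the labels say, and clock phase was not measured.

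Of 14 genes of caveolae and membrane coats 3 rose (21.4%) and 1 fell (7.14%). Caveolin 1 (Cav1), the scaffold of these membrane pits, was at 354, 329 and 300.0 CPM in Control, against 549, 538 and 494 CPM in PDGF-BB (log2 change 0.68 ± 0.09, edgeR adjusted p = 3.96e-04), and Cavin3 changed by 0.62 ± 0.11 while Cavin1 did not pass (0.13 ± 0.09). Of 24 nuclear receptor genes 7 fell (29.2%, against 15.8% of all tested genes) and 1 rose (4.17%, against 17.3%), with a median of -0.37. The rise was Esrra, a regulator of mitochondrial genes (35.5 to 41.4 CPM in Control, 51.0 to 67.2 in PDGF-BB, 0.58 ± 0.11), and the falls included the thyroid hormone receptor gene Thra (-0.62 ± 0.09). The falls numbered 11 without Control replicate 2 and 12 when PDGF-BB replicate 3 was left out as well, but 4 with limma on log2(FPKM + 0.1). This list has a median length of 3794 nt, and its share of falls was near the 27.2% of the longest genes. Of 25 amino acid transporter genes 12 fell (48.0%) and 1 rose (median -0.34). Falls ranged from 7 to 15 over the alternatives, with 7 in the 6 libraries alone and 9 with the length trend removed. Among the falls was Slc38a2, a sodium-coupled carrier of neutral amino acids (880.2 to 939 CPM in Control, 479 to 605 in PDGF-BB, -0.71 ± 0.13). The leucine carrier gene Slc7a5 overlapped between groups (-0.18 ± 0.18).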
